A study of Drosophila melanogaster with 2 samples.

Results

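The genes described here are 10 components of the EGF (epidermal growth factor) receptor pathway of Drosophila melanogaster: spi, S, rho, ru, Egfr, aos, RasGAP1, sty, pnt and aop. They were taken by name from the Release 6 annotation, out of 13968 protein-coding genes on the 7 chromosome arms, and all 10 were found there. The pathway was selected on the number of its genes nearest to conservative peaks in these same lists, so the counts and signals of its peaks are given as a description with no test. The lists are from chromatin immunoprecipitation followed by sequencing (ChIP-seq) of whole embryos aged 0 to 8 h that expressed a dan-eGFP fusion protein, precipitated with an antibody against GFP. Dan is the nuclear product of distal antenna. There was 1 group, with 2 biological replicates and no second genotype, age or treatment. A value from whole embryos averages over all cell types, so strong binding in few cells and weak binding in many cannot be told apart. The depth of the libraries is unknown, because the lists give a signal for each region and no read counts.

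In flies the membrane protein Spitz (spi) becomes an active ligand only after Star (S) carries it out of the endoplasmic reticulum and an intramembrane protease of the Rhomboid family (rho, ru) cuts it. The ligand binds the receptor tyrosine kinase Egfr, which signals through Ras and MAP kinase to a pair of ETS-domain transcription factors, the activator Pointed (pnt) and the repressor Anterior open, also called Yan (aop). Argos (aos), which captures the ligand outside the cell, Sprouty (sty) and the Ras GTPase-activating protein RasGAP1 restrain the pathway, and in the embryo it patterns the ventral ectoderm and the tracheal and nervous systems.

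Most of the 10 genes had at least 1 Dan peak nearby. A conservative peak, one that passed the authors' threshold of 0.01 on the irreproducible discovery rate (IDR) between the replicates, overlapped the gene body or the 20000 bp either side of it at 8 of the 10. The same was true of 34.6% of all 13968 protein-coding genes. The 8 were S, rho, ru, aos, RasGAP1, sty, pnt and aop, and the ligand gene spi and the receptor gene Egfr had none. Their windows held 17 different peaks, 6 of them at aop, 4 at sty and 2 at aos. Merged, the windows cover 0.629 Mb and held 27.0 peaks per Mb, against 7.84 per Mb over the arms.

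How a gene is counted changes these figures for the 10 genes and for the background together. With 5000 bp on either side, 7 of the 10 had a conservative peak, against 14.8% of all genes. Within the gene body alone 4 had one (S, aos, pnt and aop), against 5.08%. At IDR of at most 0.001, 7 of the 10 had a conservative peak within 20000 bp, against 15.8%, and at IDR of at most 0.05 all 10 had a ranked region, against 55.8%. In the other thresholded list of both replicates 8 had a peak, against 38.9%. In the own list of replicate 1 it was 9, spi included, against 33.3%, and in that of replicate 2 it was 7, without ru, against 21.9%. Counted by the nearest protein-coding transcription start site (TSS) to a peak's summit, 6 had one (S, ru, aos, RasGAP1, pnt and aop), against 6.19%. The 10 genes are long, with a median length of 19540 bp against 2164 bp for all protein-coding genes, and longer genes more often held a peak. Of the 552 genes of 20 to 40 kb, 39.3% had a peak within 20000 bp and 17.2% in the gene body. In this class, which holds aop, S, Egfr and sty, 3 of the 4 had a peak in the window and 2 in the body. Because the members were selected with these peaks in view, nothing is read from the distance between their counts and the background.

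**Figure D1:**
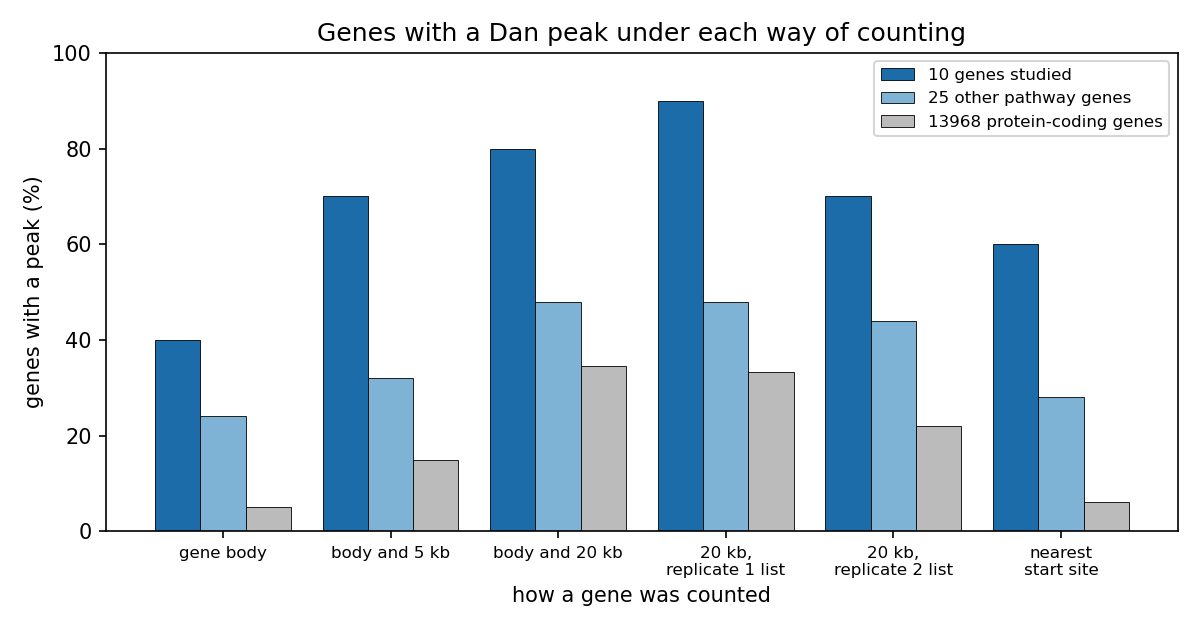
Share of genes with a Dan peak (y axis, percent, from 0) under 6 ways of counting (x axis), for the 10 genes studied, 25 other pathway genes and all 13968 protein-coding genes. With the gene body and 20000 bp either side, 8 of 10, 12 of 25 and 34.6% of genes had a conservative peak, and in the gene body alone 4, 6 and 5.08%.

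The sequence at the summit of the strongest peak is shown for aop, aos, pnt, S, RasGAP1 and sty, and not for ru and rho. Some of those shown share a short run of letters and others do not. Each is 201 bases of the reference, 100 either side of the summit, on the plus strand of dm6 (RefSeq Release 6). Capitals mark GAGAGA and CAGTG on either strand, the 6 and 5 letter strings searched. The strongest intronic peaks of aop, aos and pnt hold GAGAGA and CAGTG overlapping in 1 run.

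aop, intron, signal 345, chr2L:2163550-2163750 + strand: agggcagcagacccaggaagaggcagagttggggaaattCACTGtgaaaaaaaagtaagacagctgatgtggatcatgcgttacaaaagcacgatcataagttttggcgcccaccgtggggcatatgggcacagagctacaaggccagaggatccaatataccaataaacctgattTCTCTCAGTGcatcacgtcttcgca

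aos, intron, signal 255, chr3L:16480460-16480660 + strand: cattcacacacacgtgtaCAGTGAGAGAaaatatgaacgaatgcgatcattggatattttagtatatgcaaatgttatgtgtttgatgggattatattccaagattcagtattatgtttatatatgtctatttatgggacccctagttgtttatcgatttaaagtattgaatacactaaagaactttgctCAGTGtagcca

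pnt, intron, signal 116, chr3R:23326359-23326559 + strand: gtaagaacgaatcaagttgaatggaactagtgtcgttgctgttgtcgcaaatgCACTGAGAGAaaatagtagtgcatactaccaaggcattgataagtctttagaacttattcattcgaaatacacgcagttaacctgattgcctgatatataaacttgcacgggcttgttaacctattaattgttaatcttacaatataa

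The intronic peak of S held 1 CAGTG and no GAGAGA. The strongest peaks of RasGAP1 and sty held neither, and no match says only that these letters are not in the 201 bases. Of the peaks not shown, that of ru held 2 CAGTG and no GAGAGA, and that in the window of rho held neither.

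S, intron, signal 274, chr2L:1075871-1076071 + strand: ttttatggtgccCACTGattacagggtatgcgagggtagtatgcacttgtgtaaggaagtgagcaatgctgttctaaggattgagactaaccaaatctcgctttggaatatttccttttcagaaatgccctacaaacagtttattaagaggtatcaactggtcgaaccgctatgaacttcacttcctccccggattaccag

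RasGAP1, upstream, signal 474, chr3L:9855855-9856055 + strand: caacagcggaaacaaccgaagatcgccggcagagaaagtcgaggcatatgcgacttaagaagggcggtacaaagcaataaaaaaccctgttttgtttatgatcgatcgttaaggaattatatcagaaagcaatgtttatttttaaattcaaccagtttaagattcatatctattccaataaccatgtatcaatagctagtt

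sty, downstream, signal 345, chr3L:3394963-3395163 + strand: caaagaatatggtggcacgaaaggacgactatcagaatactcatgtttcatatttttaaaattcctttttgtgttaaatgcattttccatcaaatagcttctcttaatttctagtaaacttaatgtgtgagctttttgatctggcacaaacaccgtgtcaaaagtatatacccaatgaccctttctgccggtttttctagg

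Among the genes that make the ligand, the windows of S, ru and rho held conservative Dan peaks and that of spi held none. S had 1 peak, at chr2L:1075874-1076049, in an intron 1840 bp downstream of its nearest TSS. Its signal was 274 in the conservative list, 134.7 in replicate 1 and 128.0 in replicate 2, and it stood 93rd of the 1078 conservative peaks on the arms. The signal is the peak caller's own value with no stated scale, so replicates are compared by percentile among their ranked regions on the arms. By that measure the S peak was at 99.86 in replicate 1 and 99.92 in replicate 2, and it was in both replicates' own lists. A second region in the same gene, at chr2L:1074560-1074909 and 3076 bp from the TSS, had a signal of 58.6 and was in the other thresholded list of both replicates but not in the conservative one.

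At ru, which encodes the Rhomboid-3 protease, the peak lay upstream of the gene at chr3L:1368211-1368560. Its summit was 2242 bp from the TSS of ru and within the body of Ptp61F, a protein tyrosine phosphatase gene. The signal was 161, with 97.8 in replicate 1 and 66.6 in replicate 2. It was in the own list of replicate 1 and not in that of replicate 2, although its percentiles were close, at 99.74 and 99.72.

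The peak within 20000 bp of rho lay nearer to another rhomboid gene. It was at chr3L:1479319-1479668, 10550 bp past the end of rho and 15683 bp from its TSS. Its summit fell in an intron of stet (brother of rhomboid, an intramembrane protease), 553 bp from the TSS of that gene. The signal was 162, with 87.6 in replicate 1 and 72.1 in replicate 2, and both replicates listed it. No conservative peak was assigned to rho by nearest TSS or within 5000 bp, so the call at rho rests on the wide window.

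For spi, no list made from both replicates held a peak in the window. Replicate 1 alone listed a peak at chr2L:19575644-19575959, in an intron of spi 215 bp from the nearest of its 3 start sites, with a signal of 62.3 (percentile 99.41). No ranked region of replicate 2 overlapped it. The strongest of the 35 ranked regions around spi in the list of both replicates had a signal of 60.8 and an IDR of 0.044, at chr2L:19582062-19582411. Its summit was 237 bp from the TSS of Hakai, a ubiquitin ligase gene, and 4922 bp from that of spi.

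The receptor gene Egfr had no peak in any of the 4 thresholded lists across a window of 77.6 kb. That window held 98 ranked regions. The strongest, at chr2R:21561998-21562347, had a signal of 63.1 and an IDR of 0.067, downstream of the gene and 15530 bp from its nearest TSS. The lowest IDR was 0.037, for a region of signal 58.7 at chr2R:21510905-21511254, 11340 bp upstream of the gene. Their signals were at percentiles 98.66 and 98.21 of the ranked regions, and both missed the threshold of 0.01.

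The secreted inhibitor gene aos had 2 peaks close to its start. The stronger, at chr3L:16480513-16480611, lay in an intron 3090 bp downstream of the TSS with a signal of 255. It was 170.8 in replicate 1 and 86.9 in replicate 2, at percentiles 99.92 and 99.82, and both replicates listed it. The weaker, at chr3L:16483830-16484179, had its summit 355 bp upstream of the TSS and a signal of 107. Replicate 1, with 57.9, listed it, and replicate 2, with 44.5, did not. CG33158 spans both summits, and the TSS of aos is the nearest protein-coding one to both.

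RasGAP1 had the strongest peak of the 10 genes. It was at chr3L:9855840-9856091, its summit 670 bp upstream of the only annotated TSS, and no other protein-coding TSS lay within 1000 bp. The signal was 474, the 20th of 1078, with 257.1 in replicate 1 and 215.8 in replicate 2. These were at percentiles 99.97 and 99.98, and both replicates listed the peak. The strongest region around it without a peak, 1286 bp from the TSS, had a signal of 65.2.

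All 4 peaks of sty lay beyond its 3′ end. Of these, 3 stood in a row at 6090, 5604 and 4878 bp past the gene's end, with gaps of 486 and 726 bp between summits. The farthest of the 3, at chr3L:3394957-3395176, was the strongest with 345, the 57th of 1078. It had 185.7 in replicate 1 and 211.3 in replicate 2, at percentiles 99.93 and 99.98. The middle peak, at chr3L:3395374-3395723, had 116 and was also in both replicates' lists. The one nearest to sty, at chr3L:3396100-3396449, had 126, with 84.9 in replicate 1 (percentile 99.66) and 34.9 in replicate 2 (98.22), and was in the list of replicate 1 alone.

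The fourth sty peak, 18536 bp past the gene's end at chr3L:3382442-3382791, was the weakest of them with 84.1 and was absent from both replicates' own lists. Its score of 856, an IDR of 0.0087, was the lowest of the 17 and the nearest to the threshold. No summit of the 4 was nearest to the TSS of sty, which was 21686 to 35344 bp away. The nearest protein-coding TSS was that of Ids, an iduronate sulfatase gene, at 4349 to 18007 bp, and no annotated gene spanned these summits.

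**Figure D2:**
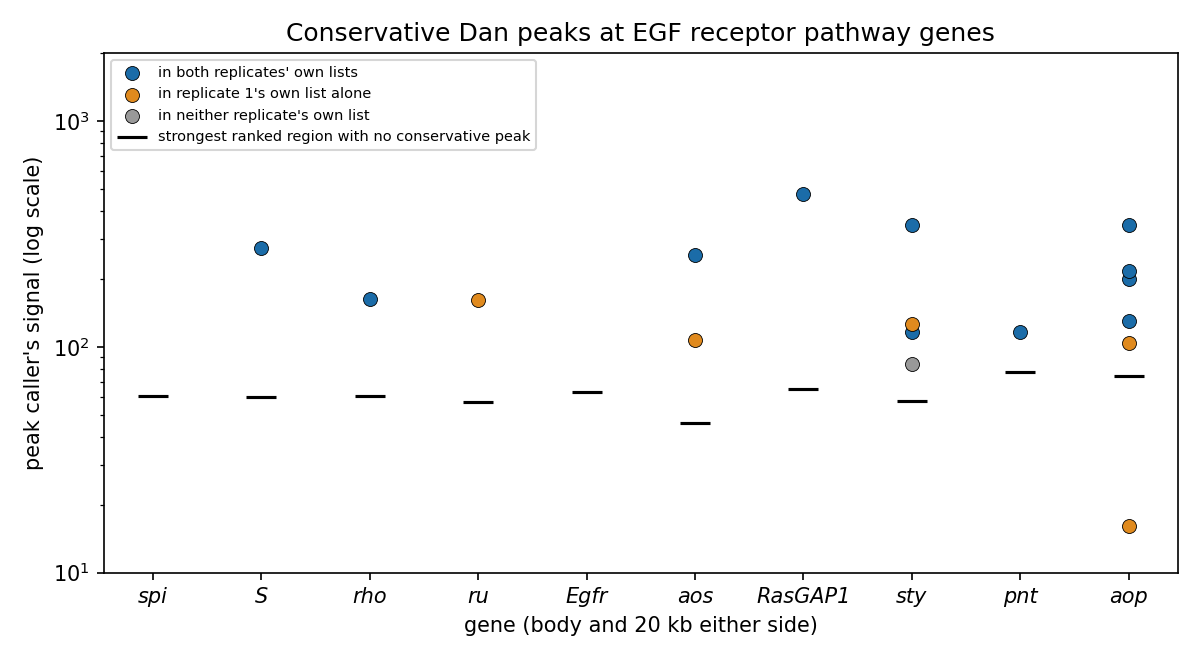
Signal of each conservative peak (points, y axis on a log scale, the peak caller's unit) in the window of each of the 10 genes (x axis), coloured by whether each replicate's own list holds it, with a bar for the strongest ranked region without a conservative peak. RasGAP1 reached 474, spi and Egfr had no point, and the bars lay between 46.0 and 77.2, above only the aop peak of signal 16.

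The genes of the nuclear effectors, pnt and aop, had 1 and 6 peaks. The activator gene pnt, the longest of the 10 at 55937 bp, had 1 conservative peak in its window of 95.9 kb. It was at chr3R:23326284-23326633, in an intron 12144 bp upstream of the nearest of 3 start sites and 19708 bp downstream of the outermost. The signal was 116, with 47.1 in replicate 1 (percentile 99.09) and 71.2 in replicate 2 (99.74), so it ranked higher in replicate 2, and both listed it. The other thresholded list had a further peak of 77.2 at chr3R:23280934-23281283, past the 3′ end of pnt. Its summit was 92 bp from the TSS of Cdc16, a subunit gene of the anaphase-promoting complex, and replicate 1 listed it too.

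The repressor gene aop had 6 conservative peaks, spread over its 3′ flank, intronic sequence and its upstream region. At least 2 peaks were in the window of 10.4% of protein-coding genes and at least 4 in that of 0.709%, which include sty. At least 6 were in the window of 7 genes in all, or 0.0501% of protein-coding genes, the others being lobo, CG13654, Cad96Ca, hng3, CG1677 and Rtnl1. The first 3 of these others lie close together on chr3R with overlapping windows. The count of 6 at aop includes a peak of signal 16 that shares 139 bp with a stronger one, and without it aop is not among the 7. Introns held a pair with summits 1319 bp apart, the stronger of which, at chr2L:2163562-2163770, lay 2123 bp upstream of the inner TSS. Its signal was 345, with 188.4 in replicate 1 and 158.7 in replicate 2, at percentiles 99.93 and 99.95. Its neighbour at chr2L:2164879-2165034 had 200, with 144.3 in replicate 1 (99.88) and 56.0 in replicate 2 (99.61). Both replicates listed both of these peaks.

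Upstream of the outer TSS of aop, the strongest peak was at chr2L:2182884-2183004, 4179 bp away, with 216. It was 127.2 in replicate 1 and 87.7 in replicate 2, was listed by both, and its summit fell in an exon of the non-coding gene lncRNA:CR43751. Nearer to the gene, a peak at chr2L:2180069-2180418 had 104, 1490 bp from the TSS. A second at chr2L:2180280-2180629 shared 139 bp with it and had a signal of 16. The 2 overlap the same region of each replicate, with 63.8 in replicate 1, which lists it, and 39.5 in replicate 2, which does not. Counted without the weaker of these, the 10 windows held 16 peaks.

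The last aop peak, at chr2L:2147247-2147596, was 9062 bp past the end of the gene. It had 130 and was listed by both replicates, with 60.5 in replicate 1 and 71.4 in replicate 2. Its summit was 96 bp from the TSS of Tbcd, a tubulin folding cofactor gene, so 5 of the 6 summits were nearest to a TSS of aop.

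**Figure D3:**
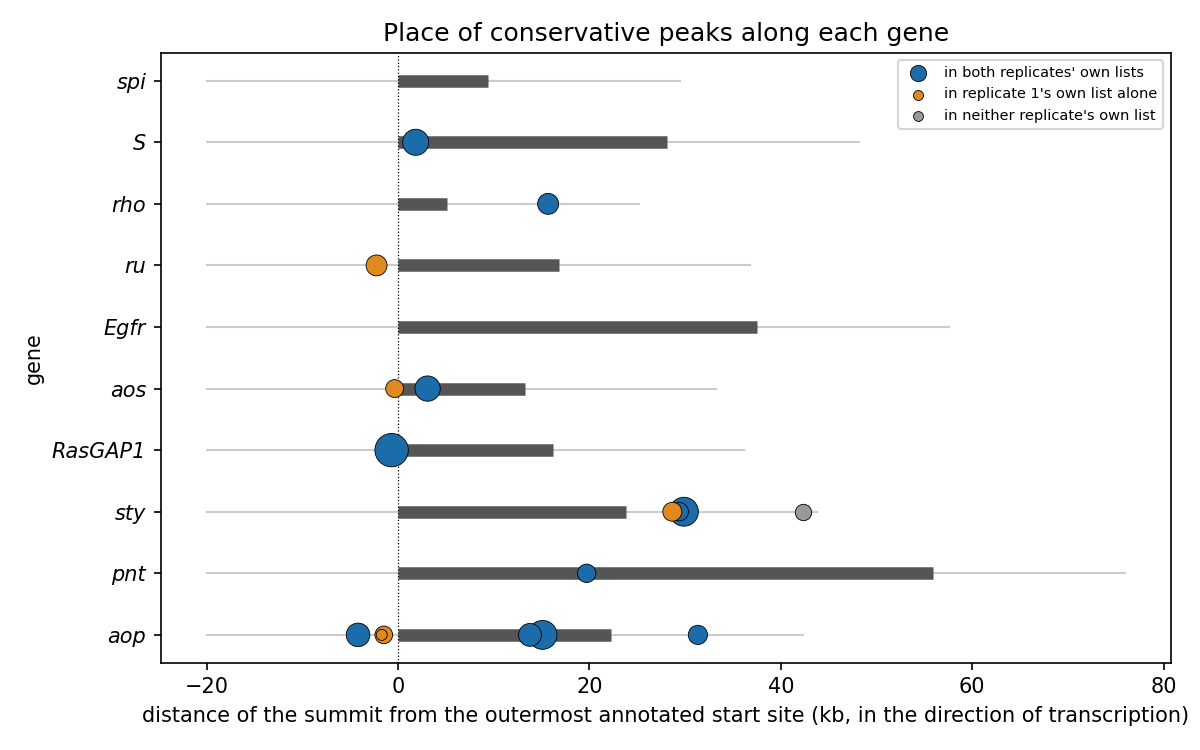
Distance of each conservative summit from the outermost annotated start site of its gene (x axis, kb, in the direction of transcription) for the 10 genes (y axis). Dark bars are gene bodies, thin lines the 20 kb flanks, point size grows with signal and colour gives the replicates' lists, and the sty peaks are seen to lie past the gene's end while those of S and aos lie near the start.

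Taken by place, 5 of the 17 summits were in introns of the genes studied, 6 upstream, 6 downstream and 0 in their exons. Only 2 were within 500 bp of any protein-coding TSS, those at aos and Tbcd. Of all 1078 conservative peaks on the arms, 38.3% were. The signals of the 17 ran from 16 to 474 with a median of 161. With values rounded to whole numbers, 15 of them were at or above 104, the median of the conservative peaks on the arms. Before rounding, the aop peak of signal 104 lay just under that median, as it stood 542nd of the 1078. Ranked regions of any strength numbered 1001 per Mb in the windows and 921 per Mb over the arms, and their median signal ran from 16.6 at spi to 31.5 at aos, against 20.4.

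The replicates' own lists shared most of the 17 peaks. Replicate 1 listed 16 and replicate 2 listed 11, all of which replicate 1 listed too. The share in both lists was 64.7%, against 41.7% of the conservative peaks on the arms. Every one of the 17 overlapped a ranked region in each replicate, at the 99.09th percentile or higher in replicate 1 and the 96.71st or higher in replicate 2. The 5 that replicate 1 listed and replicate 2 did not were at ru, aos, sty and, for 2, aop. The conservative list compares the replicates by rank, so agreement between them is part of how these peaks were chosen.

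**Figure D4:**
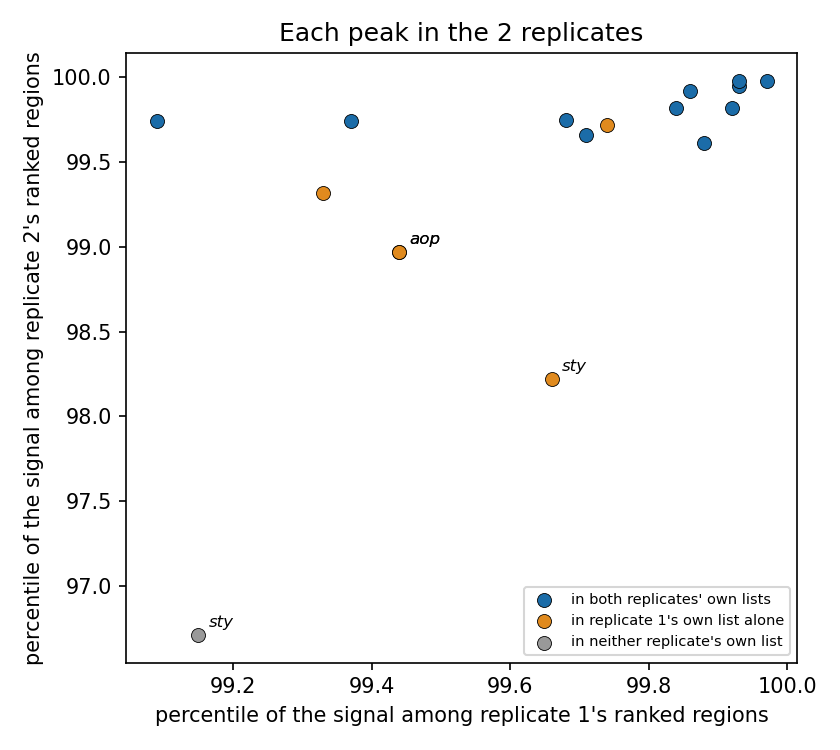
Percentile of each of the 17 peaks by signal among the ranked regions of replicate 1 (x axis) and replicate 2 (y axis), coloured by the replicates' own lists. All lie at 99.09 or more in replicate 1, and 4 lie under 99 in replicate 2, namely 2 at aop that share 1 point at 98.97 and 2 at sty at 98.22 and 96.71.

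A further 25 genes of the pathway were listed from general knowledge, with earlier results of these data known. Of these, 12 had a conservative peak in the body or within 20000 bp, against the 34.6% of all genes. In the gene body 6 had one, against 5.08%, and 7 had the nearest TSS to a summit, against 6.19%. These 7 were vn, stet, Raf, rl, edl, cic and phyl. The stet peak is the one described above in the window of rho. Of the genes with a peak in the body, Raf, rl and cic are longer than 40 kb, a class in which 27.1% had one. The others, stet, edl and phyl, are shorter, at 14110, 6010 and 5002 bp. Of genes of 10 to 20 kb, the class of stet, 10.6% had a peak in the body. For genes of 5 to 10 kb, the class of edl and phyl, it was 6.04%. As with the 10 members, nothing is read from the distance between the counts of these further genes and the background. All 4 of the added nuclear genes had a peak. They were edl, which modulates Yan and Pointed, with 278, the HMG-box repressor gene cic with 70.7, phyl with 116, and ttk, a zinc finger repressor gene, with 133 and 92.4. The 2 ttk peaks lay 9148 and 7509 bp upstream of it and nearer to the TSS of CG42693, at 3621 and 1982 bp. The cic peak was absent from both replicates' own lists.

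In the Ras and MAP kinase relay 5 of 10 had a peak in the window, against 34.6% of all genes, and 2 of 10, Raf and rl, had the nearest TSS to a summit, against 6.19%. Raf, a MAP kinase kinase kinase gene, had 5, all in introns, the strongest with 235 at 2264 bp from a start site. Of these 5, 2 were nearer to the TSS of CG14050, 2 were in both replicates' own lists, and 1, with 76.3, was in neither. The MAP kinase gene rl had 1 of 267 in an intron, 25949 bp from the nearest start site. The peaks by Sos (625), cnk (189) and csw (142 at most) were each nearer to another gene, CenG1A, l(2)k01209, Unc-76, ph-d or ph-p. Ras85D, Dsor1, drk, dos and ksr had none. Among further genes for ligands and their processing, vn, which encodes a secreted neuregulin-like ligand, had 1 of 108 at 11456 bp upstream. The ligand genes grk and Krn and the rhomboid-family gene rho-4 had none. Of the further inhibitors, Nf1 had 1 of 240, 871 bp past its end and nearer to CG43116, and kek1, Cbl, vap, Spred and Mkp3 had none.

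The sequence around the 17 summits was rich in A and T like that of the other peaks. Mean GC content in the 201 bases was 37.9% (SD 7.64 across 17 peaks), against 39.4% (SD 9.64) at all 1078 conservative peaks and 47.6% (SD 7.72) at 125044 weaker ranked regions that overlap no listed peak. It ran from 26.9% at the sty peak nearest to the gene to 59.7% at the aop peak of signal 16. GAGAGA was in 6 of the 17 windows, or 35.3%, against 11.3% of all peaks and 6.77% of the weaker regions. These 6 were at aop, aos, pnt and sty alone, and the strings searched were chosen with earlier results of these data known. CAGTG was in 12, or 70.6%, against 54.0% and 35.7%. CAGGTAG, the site bound by the early activator Zelda, was in 1, against 1.3% of all peaks. None of the 17 held CCGGAA, an ETS-type core, TGAATGAA, the site of Capicua, or TATCGATA, and these were in 4.36%, 1.76% and 0.742% of all peaks. Both strands were searched for each string, and a match describes the letters, not a bound site.

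The joined run CACTGAGAGA, picked after the sequences had been read, stood in 4 of the 17 windows, or 23.5%. The 3 of these described here are the strongest aop peak, the pnt peak and the weakest sty peak, with the run centred 81, 42 and 89 bp from the summit. The stronger aos peak, which is not among the 4, held CAGTGAGAGA in its place. Of all 1078 conservative peaks 3.8% held CACTGAGAGA on either strand, as did 0.19% of the weaker regions, and the arms have 890 copies. In the windows of the 25 other pathway genes 1 of 20 peaks had it, and these 20 include the stet peak that is also counted among the 17. The run overlaps both GAGAGA and CAGTG, so it is not a separate count from theirs. It was picked with these windows in view, so nothing is read from the distance between its share in them and the other shares.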

How the data were processed

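The authors' deposited peak lists, on dm6 per the labels, were made from filtered alignments of each replicate or both and a control, per the sample notes. Sonicated fragments were 200 to 800 bp long, per the labels. No aligner or peak caller is named in the sources used here, and library depths are unknown. Each deposited region has a signal, a score scaled from the IDR and capped at 1000, and a −log10 q, used only as an alternative for ranking. The deposited −log10 of the IDR set other thresholds.

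Genes came from Ensembl release 115 and sequence from RefSeq, both Release 6. Every list region on the arms lay within the reference's arm lengths. An overlap needed at least 1 bp. The nearest TSS was taken over all transcripts of protein-coding genes. Weaker regions had an IDR above 0.01 and overlapped no listed peak. The members, the 35 pathway genes, of which 25 are not members, and the motifs were chosen with earlier results of these data known. Named genes were the 10 members, the listed pathway genes with a peak, and the nearest gene of each peak. Genes listed without a peak, those beside regions under the threshold and those with at least 6 peaks were named after their values were seen. Alternatives varied the window, the list, the threshold, the overlap and the replicate. With 1 group, no test was run. The interval functions were tested on simulated data. Python 3.11.15, numpy 2.4.6, pandas 2.3.3 and matplotlib 3.10.9 were used.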

Additional observations from a re-analysis of the deposited data

How the results depend on the processing

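Of 45 alternative values, 31 stayed within 1.5 times the main count and 14 did not. The 31 include the strongest peak of each gene ranked by score, which says little. Of the 17 peaks, 16 share the capped score of 1000, and a gene without other peaks leaves nothing to choose. No test was run, so none could be lost. With the gene body alone, 4 of the 10 genes had a conservative peak, 5 peaks were left of 17, 6 of the 25 other pathway genes had a peak and the share of all genes fell to 5.08%, because fewer bases are searched. All 5 peaks in gene bodies were in the list of replicate 1 and all 5 in that of replicate 2. With 5000 bp on either side the share of all genes was 14.8%. At IDR of at most 0.001 the windows held 10 peaks and 15.8% of genes had one. At IDR of at most 0.05, 19 of the 25 and 55.8% of all genes had a region. All 17 peaks overlapped a ranked region of replicate 2, against 11 in its own list.

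With 1 replicate's own list in place of the conservative one, 7 to 9 of the 10 genes had a peak, the windows held 11 to 18 peaks, 11 to 12 of the 25 other genes had one, 5 to 7 of the 10 had the nearest TSS, and 21.9 to 33.3% of all genes had a peak. The lower values belong to the list of replicate 2, which has 537 regions on the arms against 1002 in that of replicate 1. No paired analysis was possible because there is 1 group and no test. Without read counts, a region under the threshold at spi or Egfr cannot be told from one that deeper sequencing would have listed.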

Other observations

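Within the window of RasGAP1, a region at chr3L:9827439-9827788 had a signal of 30.5, at the 75.37th percentile of the ranked list, but an IDR of 0.014, close to the threshold of 0.01. It overlapped ranked regions at the 96.34th percentile of replicate 1 and the 98.21st of replicate 2. The aop peak of signal 16 ranked 1053rd by signal among 1078 conservative peaks and had the maximum score of 1000. In these 2 regions the signal and the score stood far apart.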
